A study of Mus musculus with 6 samples.

Results

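Cadherins are calcium-dependent adhesion proteins of the cell surface, and the family was followed here through 91 protein-coding genes of 55487 genes counted in mouse cerebellum. Members were taken by symbol from an annotation of the GRCm38 genome: every gene named Cdh or Pcdh with a digit, and every Pcdha, Pcdhb and Pcdhg gene, with the endothelial Cdh5 left out. They comprised 5 type I classical cadherins, 12 type II classical cadherins, 5 other Cdh genes, 9 delta protocadherins, 3 other unclustered protocadherins, and 14 alpha, 22 beta and 21 gamma genes of the clustered protocadherin locus on chromosome 18. RNA was sequenced from individual cerebella of male mice at postnatal day 14, 3 of them homozygous knockouts of Galnt17 (also named Wbscr17; KO below) and 3 B6C3 wild types (WT below). Galnt17 encodes a member of the enzyme family that starts mucin-type O-glycosylation by adding N-acetylgalactosamine to proteins.

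The KO animals carried the repository allele Galnt17tm1.1(KOMP)Vlcg in the germ line, so the loss was not limited to a cell type. The allele was first brought into C57BL/6J by in vitro fertilization. Homozygotes of that background were not born alive, per the labels, and the line was therefore crossed to hybrids of C57BL/6J and C3H/He (B6C3). The labels do not say whether KO and WT animals were littermates, so the genotype cannot be told apart from strain alleles or litter. Reads assigned to Galnt17 itself numbered 72, 80 and 63 in KO against 1119, 729 and 963 in WT, 15.3-fold lower in KO as CPM (counts scaled to the same library size), with an adjusted p of 6.18e-08 by edgeR's quasi-likelihood test. The labelled tissue was checked against marker lists: Purkinje cell, granule cell and cerebellar interneuron markers were all detected, and no marker list held a gene at 0 in all libraries. The summed counts in genes ran from 17111611 to 29840046 per library.

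Classical cadherins bind the same or related cadherins on a facing cell and hold actin through catenins on the inside. Type I members include the E-, N-, P- and R-cadherins of epithelia and neural tissue, while type II members are expressed in restricted sets of neurons and glia, in which combinations of them sort cells and match synaptic partners. Delta protocadherins are weaker adhesion molecules that also signal to the cytoskeleton. The clustered protocadherins give single neurons a surface identity: each neuron chooses a few variable exons by promoter choice, and in Purkinje cells this identity keeps sister dendrites of 1 cell apart. In the alpha and gamma clusters each variable exon is spliced to shared constant exons, whereas each beta gene is a single-exon gene of its own.

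Few of these genes differed between KO and WT cerebellum beyond the spread of the libraries. Of the 91 members, 84 were measured, with at least 60 counts over the 6 libraries, and all 84 entered the test. The other 7 were not measured: Cdh16, Cdh17, Cdh26, Pcdha4, Pcdha11, Pcdhb1 and Pcdhga10. At an adjusted p below 0.05, 0 members were higher in KO, against 0.784% of the 18237 genes tested, and 1 member, Cdh3, was lower, against 0.872% of all genes. At an unadjusted p below 0.05, 2 members were higher (8.57% of all genes) and 16 were lower (8.99% of all genes, against 19.0% of the members). The 3 KO libraries lay above the 3 WT libraries in 3 members, where 11.5% of all genes did so, and below them in 13 members, where 12.2% of all genes did so, 23.7% on both sides together. The median log2 fold change (KO minus WT) was -0.06 over the 84 members and -0.01 over all genes tested.

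The library of WT replicate 3 stood apart for these genes and moved with the lower side of these counts. Its level lay above the mean of the 6 libraries in 77 of the 84 members (91.7%), whereas 49.7% of all genes tested lay above theirs in that library. It was the highest library for 47 of the 84 members (56.0%, against 22.8% of all genes), and its median deviation was 0.18 on the log2 scale. WT replicate 1 lay to the other side, above the mean in 28.6% of members, against 51.5% of all genes. It was the lowest library for 27 members (32.1%, against 18.6% of all genes). KO replicate 2 lay above the mean in 31.0% of members, against 49.3% of all genes. Without WT replicate 3 the median log2 fold change of the members was 0.02. At an unadjusted p below 0.05, 6 members were then higher (8.91% of all genes) and 8 lower (7.79% of all genes). Cdh3 was still the 1 member that passed the adjusted threshold. WT replicate 3 also held 7.73 CPM of Slc6a4, the serotonin transporter of brainstem raphe neurons, where the other 5 libraries held 0 to 0.129 CPM. The 10 brainstem and midbrain markers summed to 18.01 to 43.7 CPM in WT and to 19.1 to 21.4 CPM in KO, and the part of such tissue in the members' levels was not tested.

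**Figure D1:**
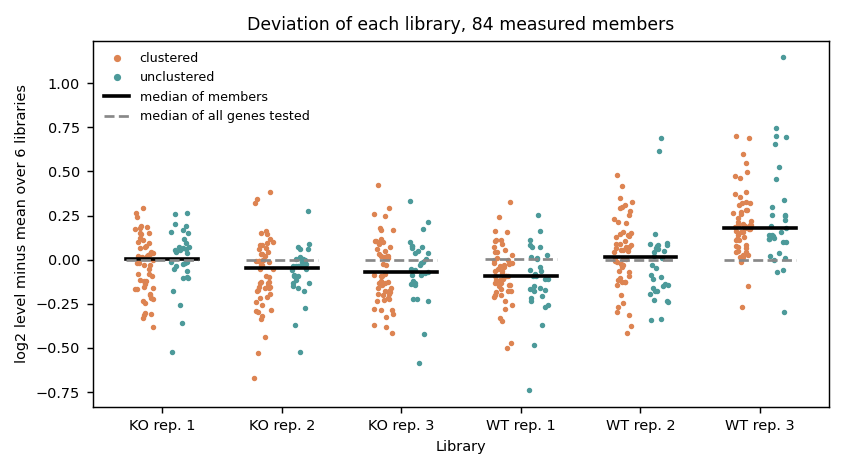
Deviation of each library from the mean of the 6 libraries, on the log2 scale, for the 84 measured members (points, clustered genes in orange and unclustered genes in teal), with the median of the members (black line) and of all genes tested (dashed grey line). The members of WT replicate 3 sit highest, with a median of 0.18, and those of WT replicate 1 lowest, with a median of -0.09. The median of all genes stays near 0 in every library.

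Among the 5 type I classical cadherins, Cdh3 fell in KO and the other 4 did not pass the test. Cdh3 encodes P-cadherin, a cadherin of epithelia, and lies on the plus strand at chr8:106510891-106557297. It was scarce: 0.905, 0.903 and 0.844 CPM in the KO libraries and 1.91, 2.76 and 2.77 CPM in the WT libraries, from 215 counts in all. The groups did not overlap, and the lowest WT library held more than the highest KO library by a wide margin. The log2 fold change was -1.47 ± 0.24 (SE, n = 3 and 3), a level 2.77-fold lower in KO, with an adjusted p of 0.0162 by edgeR's quasi-likelihood test. In whole tissue, fewer cells of a type and less RNA per cell cannot be told apart.

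The call of Cdh3 depended on the libraries kept. It was lost when any KO library was left out (adjusted p of 0.0908, 0.0976 and 0.0862 without replicates 1, 2 and 3). It was also lost when WT replicate 2 was left out (adjusted p of 0.0776). With any 1 library left out, its log2 fold change stayed between -1.64 and -1.37. The share of all genes called fell too, from 1.66% with all 6 libraries. It was 0.441% to 0.667% without a KO library and 0.729% without WT replicate 2. Choroid plexus, an epithelium attached to the cerebellum, moved in the same direction as Cdh3. Of its 10 markers, 8 fell in KO and 0 rose, and their summed level was 212.5 to 767.6 CPM in the KO libraries against 1603 to 2901 CPM in the WT libraries. None of these markers was at 0 in all libraries. Ttr, the transthyretin gene, held 4.26, 220.1 and 430.8 CPM in KO and 1096, 1861 and 1995 CPM in WT, and was 1 of the 2 markers that did not pass, with an adjusted p of 0.154. Kcnj13, a potassium channel gene that fell, held 0.335, 0.559 and 0.348 CPM in KO and 1.12, 1.94 and 1.70 CPM in WT. All 3 KO libraries lay below all 3 WT libraries in both markers. Kcnj13 was the only marker of the list whose level did not rise from KO replicate 1 through 2 to 3. Sostdc1, for example, held 0.235, 1.63 and 2.78 CPM in KO, and Enpp2 held 194.4, 260.2 and 301.7 CPM. In Cdh3, as in Kcnj13, the level did not rise in this order: 0.905, 0.903 and 0.844 CPM in KO, from only 27, 21 and 17 counts. The part of this tissue in the Cdh3 result was not tested.

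Cdh1, which encodes E-cadherin, follows Cdh3 on the same strand at chr8:106603351-106670246, 46053 bases beyond the end of Cdh3. It held 8.45, 8.98 and 8.59 CPM in the KO libraries and 7.12, 5.69 and 5.88 CPM in the WT libraries. All 3 KO libraries lay above all 3 WT libraries, the opposite side from Cdh3. The log2 fold change of 0.47 ± 0.13 (SE, n = 3 and 3) did not pass, with an adjusted p of 0.106 and a 95% interval of 0.18 to 0.76. It passed without WT replicate 1, the highest WT library (adjusted p of 0.0177), and with no filter on low counts (adjusted p of 0.0494).

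Gm10073, a short predicted gene on the opposite strand between Cdh3 and Cdh1, was looked at after its values had been seen. It held 6.37, 6.66 and 6.90 CPM in KO and 1.70, 3.29 and 3.99 CPM in WT, with a log2 fold change of 1.17 and an adjusted p of 0.0501. The neighbours Zfp90, Tango6 and Has3 had adjusted p values of 0.959, 0.877 and 0.854. Within this stretch, values that separated the groups therefore stood for Cdh3, Gm10073 and Cdh1, and not for the measured genes on either side that are named here.

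**Figure D2:**
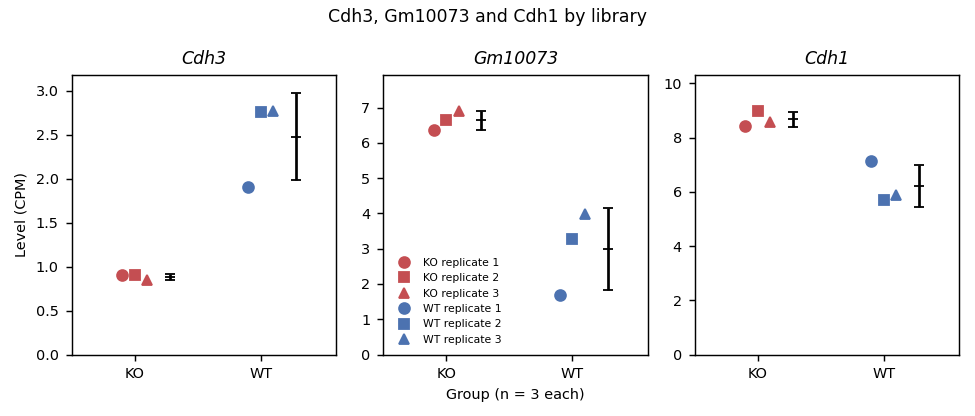
Levels in CPM of Cdh3, Gm10073 and Cdh1 in each library of the KO and WT groups (points), with the mean and SD of 3 libraries beside them (bars). The groups do not overlap in any of the 3 genes: KO is below WT for Cdh3 (0.844 to 0.905 against 1.91 to 2.77 CPM) and above WT for Gm10073 and Cdh1.

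The 3 more abundant type I genes lay close to equal in the groups. Cdh2, the N-cadherin of neural tissue, held 77.3, 78.6 and 73.8 CPM in KO and 74.2, 83.7 and 95.7 CPM in WT. Its groups overlapped, and the log2 fold change of -0.14 ± 0.08 (SE) had a 95% interval of -0.33 to 0.04. Cdh4, or R-cadherin, held 34.9, 33.7 and 37.1 CPM in KO and 31.1, 36.8 and 37.8 CPM in WT, a log2 fold change of 0.00 with a 95% interval of -0.18 to 0.19. Cdh15, or M-cadherin, which is known from muscle and from cerebellar granule cells, held 30.5, 31.9 and 37.0 CPM in KO and 34.7, 29.6 and 33.2 CPM in WT. The groups overlapped in Cdh4 and Cdh15 too, and the 95% interval of the Cdh15 log2 fold change was -0.18 to 0.22.

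No type II classical cadherin passed the test. At an unadjusted p below 0.05, 0 of the 12 were higher, against 8.57% of all genes. Lower were 2, Cdh18 and Cdh20 (16.7%, against 8.99% of all genes). Cdh18 held 36.6, 33.8 and 35.8 CPM in KO and 39.5, 39.8 and 40.3 CPM in WT, a log2 fold change of -0.17 ± 0.06 (SE) with an adjusted p of 0.183. Cdh20 held 28.9, 29.2 and 29.5 CPM in KO and 33.7, 31.6 and 34.4 CPM in WT, a log2 fold change of -0.19 ± 0.07 (SE) with an adjusted p of 0.180. In both genes every KO library lay below every WT library, 1.13-fold lower for Cdh18 and 1.14-fold lower for Cdh20. In Cdh10 the KO libraries (29.1, 28.8 and 27.0 CPM) also lay below the WT libraries (29.8, 30.5 and 32.5 CPM), with a log2 fold change of -0.13 and an adjusted p of 0.372.

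The most abundant type II gene was Cdh22, which held 148.6, 139.4 and 137.7 CPM in KO and 130.1, 139.9 and 138.7 CPM in WT. Its groups overlapped, with a log2 fold change of 0.06 and a 95% interval of -0.06 to 0.18. Cdh8 held 64.7, 63.3 and 60.4 CPM in KO and 59.9, 64.9 and 63.2 CPM in WT, a log2 fold change of 0.01 on a 95% interval of -0.12 to 0.13. Cdh7 held 59.98, 56.4 and 60.4 CPM in KO and 64.6, 51.0 and 54.97 CPM in WT, with overlapping groups. The other type II genes (Cdh6, Cdh9, Cdh11, Cdh12, Cdh19 and Cdh24) had log2 fold changes from -0.38 (Cdh9, from 184 counts in all) to 0.23 (Cdh12), and their groups overlapped.

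Of the 5 other Cdh genes only Cdh13 and Cdh23 were measured. Cdh13 encodes T-cadherin, which has no intracellular part and is held in the membrane by a lipid anchor. It held 29.1, 30.04 and 27.9 CPM in KO and 27.5, 36.6 and 52.2 CPM in WT. The lowest of the 6 libraries was a WT library, so the groups overlapped, and WT replicate 3 was far above the rest. The log2 fold change of -0.41 ± 0.18 (SE) had an adjusted p of 0.269 and was -0.13 without WT replicate 3. Cdh23, a partner of Pcdh15 in the tip links of sensory hair cells, held 2.04, 2.19 and 3.33 CPM in KO and 1.33, 4.17 and 3.06 CPM in WT.

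**Figure D3:**
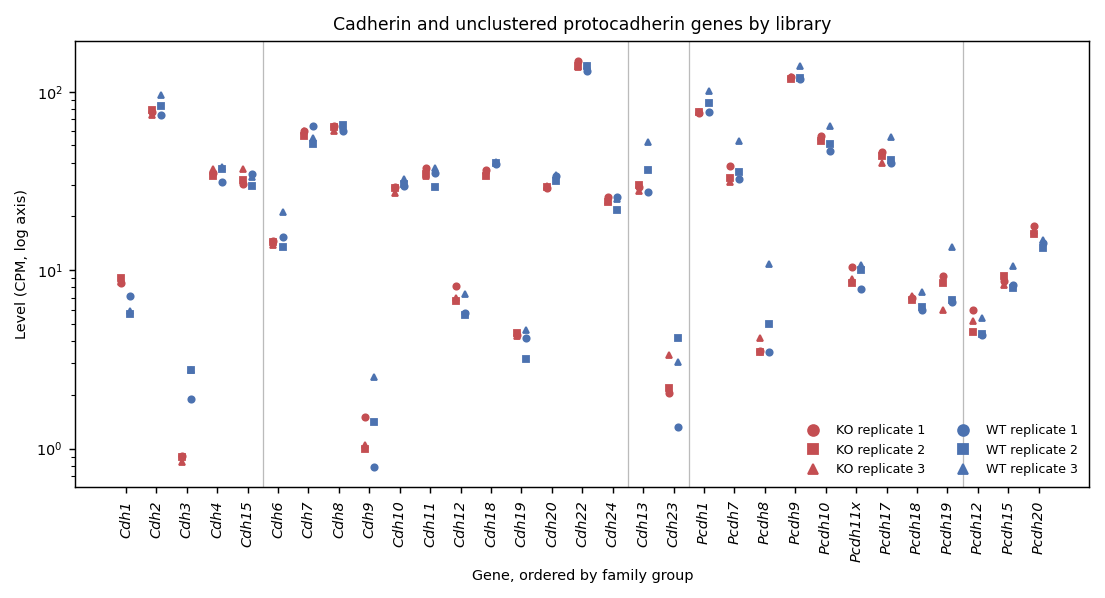
Level in CPM (log axis) of the 31 measured cadherin and unclustered protocadherin genes in each of the 3 KO and 3 WT libraries, with grey lines between the family groups (type I, type II, other Cdh, delta protocadherins, other protocadherins). For most genes the KO and WT points lie on top of each other, Cdh3 has KO below WT, and WT replicate 3 is the highest library for 21 of the 31 genes.

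None of the 9 delta protocadherins passed the test. At an unadjusted p below 0.05, 0 were higher, against 8.57% of all genes. Lower were 2, Pcdh1 and Pcdh8 (22.2%, against 8.99% of all genes). Pcdh1 held 76.3, 76.8 and 77.3 CPM in KO and 76.9, 86.7 and 101.1 CPM in WT, a log2 fold change of -0.20 ± 0.09 (SE) with an adjusted p of 0.266. Pcdh8, an activity-regulated protocadherin of synapses, held 3.52, 3.48 and 4.17 CPM in KO and 3.48, 4.99 and 10.9 CPM in WT, a log2 fold change of -0.79 ± 0.35 (SE) with an adjusted p of 0.272. In both genes 1 WT library lay within or below the KO range and WT replicate 3 was the highest. Without that library the log2 fold changes were -0.09 for Pcdh1 and -0.17 for Pcdh8, and the median of the 9 genes went from -0.08 to 0.07.

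Pcdh9 was the most abundant of the group, with 121.4, 118.2 and 120.9 CPM in KO and 118.0, 120.0 and 138.8 CPM in WT, and a 95% interval of the log2 fold change from -0.21 to 0.08. Pcdh10, which is widely expressed in developing brain, held 56.8, 53.0 and 55.8 CPM in KO and 46.6, 50.8 and 64.6 CPM in WT. The KO libraries lay inside the range of the WT libraries in Pcdh10, and its 95% interval was -0.20 to 0.26. The other delta genes (Pcdh7, Pcdh11x, Pcdh17, Pcdh18 and Pcdh19) had log2 fold changes from -0.23 (Pcdh7) to 0.08 (Pcdh18), all with overlapping groups.

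Of the 3 other unclustered protocadherins, Pcdh20 had all 3 KO libraries above all 3 WT libraries. It held 17.7, 16.0 and 16.5 CPM in KO and 14.2, 13.4 and 14.7 CPM in WT, a log2 fold change of 0.25 ± 0.09 (SE) that did not pass, with an adjusted p of 0.193. Pcdh12, known from endothelium, held 6.00, 4.51 and 5.21 CPM in KO and 4.31, 4.40 and 5.40 CPM in WT. Pcdh15 held 8.65, 9.24 and 8.24 CPM in KO and 8.28, 7.92 and 10.6 CPM in WT. The groups overlapped in both genes, with adjusted p values of 0.650 and 0.918.

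The start regions of Cdh18, Cdh20 and Pcdh20 are printed because these are unclustered genes whose libraries separated the groups and for which RefSeq gives a promoter. Each is the 250 bases before the annotated start, 5′ to 3′ on the gene's strand, from RefSeq's GRCm38.p6 table: chr15:23036213-23036462 for Cdh18 (plus strand, an internal start of the annotated gene), chr1:104768270-104768519 for Cdh20 (plus strand) and chr14:88471397-88471646 for Pcdh20 (minus strand). Capitals mark CCAAT on either strand.
Cdh18: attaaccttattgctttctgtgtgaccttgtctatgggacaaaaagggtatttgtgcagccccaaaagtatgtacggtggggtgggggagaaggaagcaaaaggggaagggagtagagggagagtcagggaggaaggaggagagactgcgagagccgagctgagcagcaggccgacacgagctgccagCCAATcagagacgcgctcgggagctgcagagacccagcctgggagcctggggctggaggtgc
Cdh20: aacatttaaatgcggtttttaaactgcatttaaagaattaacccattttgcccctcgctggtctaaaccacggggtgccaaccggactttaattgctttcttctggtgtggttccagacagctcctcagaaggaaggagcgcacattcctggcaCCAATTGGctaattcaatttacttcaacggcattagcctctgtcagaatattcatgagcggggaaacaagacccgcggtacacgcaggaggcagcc
Pcdh20: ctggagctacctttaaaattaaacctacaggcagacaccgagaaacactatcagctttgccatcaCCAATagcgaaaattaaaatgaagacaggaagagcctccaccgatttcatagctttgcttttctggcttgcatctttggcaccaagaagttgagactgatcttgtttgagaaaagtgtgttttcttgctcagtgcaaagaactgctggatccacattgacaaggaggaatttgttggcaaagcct

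The 3 windows were searched on both strands for the box written CCAAT, for the core of the TATA box written TATAAA, for the E-box written CAGGTG and for the box of Sp factors written GGGCGG. Cdh18 and Pcdh20 each held CCAAT 1 time, and Cdh20 held it 2 times in an overlapping pair on opposite strands. CCAAT occurred in 33.8% of the 32851 promoter windows of the same length, TATAAA in 12.4%, CAGGTG in 17.2% and GGGCGG in 32.7%. None of the other 3 motifs was found in these windows. Cdh18 held 8 CG dinucleotides, Cdh20 held 10 and Pcdh20 held 3, where the median of all windows was 6.

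The clustered genes lie in a row on the plus strand of chromosome 18, from 36930184 at the start of Pcdha1 to 37841873 at the shared end of the gamma cluster. How they were counted limits what can be read from them: reads that fall on the constant exons belong to every gene of a cluster, are ambiguous to the counter and are lost. Unique bases, those covered by no other annotated gene, made up 46.4% of the exons of the alpha genes at the median, 54.8% in the gamma cluster and 100% in the beta cluster. Of the 57 clustered genes 53 were measured. Of these, 0 passed the test, and at an unadjusted p below 0.05, 0 were higher and 10 were lower, or 18.9%, against 8.99% of all genes and 17.6% in both directions together. Their median log2 fold change was -0.07, and -0.03 without WT replicate 3, when 2 were higher and 5 lower.

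In the alpha cluster 12 of 14 genes were tested, and at an unadjusted p below 0.05, 0 were higher and 3 lower. That was 25.0%, against 8.99% of all genes. The genes with lower values lay side by side, Pcdha9, Pcdha10 and Pcdha12. Pcdha9 held 4.69, 3.74 and 5.51 CPM in KO and 6.09, 6.57 and 7.92 CPM in WT, a log2 fold change of -0.56 ± 0.18 (SE). Pcdha10 held 2.38, 2.24 and 2.14 CPM in KO and 2.73, 4.05 and 4.67 CPM in WT, a log2 fold change of -0.75 ± 0.22 (SE). Pcdha12 held 4.52, 3.05 and 4.42 CPM in KO and 6.59, 5.16 and 8.65 CPM in WT, a log2 fold change of -0.77 ± 0.22 (SE). All 3 KO libraries lay below all 3 WT libraries in each of these genes, and none passed, with adjusted p values of 0.140, 0.124 and 0.113. Such separation held for 25.0% of the alpha genes tested and for 12.2% of all genes. Without WT replicate 3 the log2 fold changes were -0.44, -0.56 and -0.56. Pcdha11 lies between them and was not measured, and the next gene upstream, Pcdha8, had a log2 fold change of -0.62 from only 71 counts, with an adjusted p of 0.451. These variable exons are close copies of each other, so the counts of single genes are uncertain.

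Pcdha1, Pcdha2, Pcdha3, Pcdha5, Pcdha6 and Pcdha7 had log2 fold changes from -0.09 (Pcdha3) to 0.47 (Pcdha1, from 122 counts in all), with overlapping groups. The 2 C-type alpha genes, which are expressed by most neurons instead of by choice, overlapped between the groups. Pcdhac2 held 48.8, 47.4 and 42.2 CPM in KO and 48.8, 45.4 and 45.9 CPM in WT, with a 95% interval of the log2 fold change from -0.17 to 0.13. It made up 57.5% ± 1.38 (SD, n = 3) of the summed alpha level in KO and 53.8% ± 3.82 (SD, n = 3) in WT. Pcdhac1 held 6.57, 6.40 and 4.47 CPM in KO and 7.33, 5.57 and 6.81 CPM in WT.

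In the beta cluster 21 of 22 genes were measured, and at an unadjusted p below 0.05, 0 were higher and 2 lower, or 9.52% against 8.99% of all genes. None was lower without WT replicate 3, KO replicate 2 or KO replicate 3. Pcdhb6 held 3.75, 3.61 and 3.43 CPM in KO and 3.98, 4.46 and 7.19 CPM in WT, a log2 fold change of -0.53 ± 0.22 (SE) with an adjusted p of 0.255, and of -0.22 without WT replicate 3, the highest library. Pcdhb8 held 6.47, 5.29 and 5.21 CPM in KO and 7.12, 7.22 and 8.65 CPM in WT, a log2 fold change of -0.43 ± 0.15 (SE) with an adjusted p of 0.170. The KO libraries lay below the WT libraries in both, and above them in Pcdhb9 (13.8, 13.8 and 13.5 against 11.9, 12.7 and 13.3 CPM), where the log2 fold change was only 0.12.

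The 3 beta genes with the highest CPM, not corrected for length, were Pcdhb17, Pcdhb20 and Pcdhb22. Pcdhb17 held 18.6, 16.9 and 15.9 CPM in KO and 15.5, 15.9 and 19.5 CPM in WT. Pcdhb20 held 13.4, 13.3 and 15.9 CPM in KO and 15.3, 15.7 and 15.2 CPM in WT. Pcdhb22 held a mean of 14.4 ± 0.94 CPM in KO and 14.96 ± 0.82 CPM in WT (SD, n = 3). The groups overlapped in all 3, and their share of the summed beta level stayed within 1 percentage point between the groups. The other beta genes measured, Pcdhb2 to Pcdhb5, Pcdhb7, Pcdhb10 to Pcdhb16, Pcdhb18, Pcdhb19 and Pcdhb21, had log2 fold changes from -0.33 (Pcdhb13) to 0.23 (Pcdhb12), all with overlapping groups. A gene on the other strand lies over most of Pcdhb12, so its value is uncertain.

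The gamma cluster held 5 of 20 tested genes lower (25.0%, against 8.99% of all genes) and 0 higher (against 8.57%) at an unadjusted p below 0.05. Without WT replicate 3 it held 2 lower and 2 higher, and the lower count ran from 2 to 8 over the 6 libraries left out in turn. Pcdhgb6 had the smallest p of them: it held 12.4, 12.6 and 11.8 CPM in KO and 15.6, 15.3 and 16.2 CPM in WT. The groups stood well apart, with a log2 fold change of -0.36 ± 0.09 (SE), but it did not pass, with an adjusted p of 0.0818. Pcdhga4 held 3.99, 4.34 and 4.57 CPM in KO and 5.67, 6.28 and 5.74 CPM in WT, a log2 fold change of -0.46 ± 0.14 (SE). Pcdhga12 held 4.46, 4.56 and 4.32 CPM in KO and 5.01, 6.45 and 6.61 CPM in WT, a log2 fold change of -0.43 ± 0.16 (SE). The KO libraries lay below the WT libraries in both genes, with adjusted p values of 0.139 and 0.192.

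Pcdhgb2 (5.13, 6.79 and 5.76 against 6.79, 7.39 and 8.02 CPM) and Pcdhga7 (9.75, 8.94 and 12.2 against 11.6, 12.1 and 14.8 CPM) completed the 5. In Pcdhga7 the highest KO library lay inside the WT range, and in Pcdhgb2 the highest KO library and the lowest WT library were almost level. Among the C-type genes, Pcdhgc3, an isoform also expressed by astrocytes, held 77.6, 75.6 and 77.4 CPM in KO and 74.5, 84.4 and 68.6 CPM in WT, with a 95% interval of the log2 fold change from -0.14 to 0.18. A gene on the other strand, BC037039, lies over part of Pcdhgc3, and the 10282 counts used were 27392 when the columns counted by strand were added. Pcdhgc4, the isoform known for neuronal survival, held 24.4, 23.2 and 23.5 CPM in KO and 23.1, 26.9 and 29.0 CPM in WT, with a 95% interval of -0.35 to 0.05. Both overlapped between the groups. The other gamma genes measured, Pcdhga1 to Pcdhga3, Pcdhga5, Pcdhga6, Pcdhga8, Pcdhga9, Pcdhga11, Pcdhgb1, Pcdhgb4, Pcdhgb5, Pcdhgb7 and Pcdhgc5, had log2 fold changes from -0.41 (Pcdhgb7) to 0.26 (Pcdhga11), with overlapping groups.

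The alpha and gamma genes were also divided by the way their promoters are used, with the beta genes left out. The alternate alpha and gamma genes, those chosen by single neurons, had a median log2 fold change of -0.22 over 27 genes tested, of which 8 were lower and 0 higher at an unadjusted p below 0.05 (29.6%, against 8.99% of all genes). Their median was -0.05 without WT replicate 3, with 5 lower and 2 higher. The 21 beta genes tested, in neither class here, had a median of -0.07, with 2 lower (9.52%) and 0 higher unadjusted. The 5 C-type genes had a median of -0.02, with 0 at an unadjusted p below 0.05 in either direction. Their summed level was 154.0 to 163.1 CPM in KO and 157.4 to 167.3 CPM in WT. The difference between alternate and C-type genes was not tested, and the C-type genes Pcdhac2, Pcdhgc3 and Pcdhgc4 held more counts than any alternate gene.

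**Figure D4:**
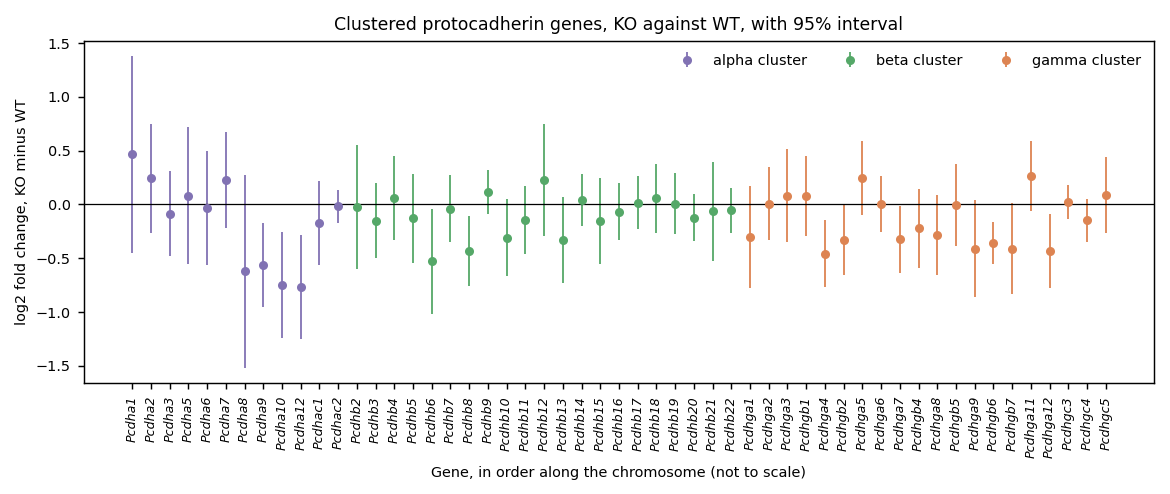
Log2 fold change (KO minus WT) with its 95% interval for the 53 measured clustered protocadherin genes, in their order along the chromosome and coloured by cluster. The intervals of 10 genes lie below 0, among them Pcdha9, Pcdha10, Pcdha12 and Pcdhgb6, and none lies above 0, but no gene passes after adjustment over all genes.

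Summed over each group, the levels of the KO and WT libraries overlapped in every group. The type I genes summed to 152.0 to 157.4 CPM in KO and 149.0 to 175.4 CPM in WT, and the type II genes to 435.3 to 459.4 CPM in KO and 432.3 to 462.3 CPM in WT. The delta protocadherins summed to 351.5 to 369.3 CPM in KO and 338.0 to 456.0 CPM in WT. The alpha cluster summed to 75.1 to 82.8 CPM in KO and 82.7 to 92.7 CPM in WT, the beta cluster to 157.2 to 168.2 against 156.5 to 189.3 CPM, and the gamma cluster to 209.8 to 218.3 against 212.3 to 239.1 CPM. The highest WT value was that of replicate 3 in each of these 6 groups.

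Between genes, levels were compared as CPM per kilobase of unique exon. Pcdhgc3 was the highest member, at 42.2 in KO and 41.7 in WT, followed by Cdh22, at 38.3 and 36.8. Pcdh9 followed at 17.7 and 18.5, and Pcdhac2 at 15.2 and 15.4. Cdh15 (10.2 and 9.995) and Cdh2 (9.49 and 10.5) were the highest type I genes on this scale, and Pcdh1 (8.73 and 10.03) lay beside them. The order of Cdh15 and Cdh2 differed between the groups, and that pair cannot be ranked. The KO libraries varied less among themselves than the WT libraries: the median SD of log2 levels was 0.10 in KO and 0.18 in WT over 82 members, where it was 0.07 and 0.12 over the 15887 genes of at least 1 CPM.

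Genes that work with cadherins gave no call in any of 5 lists. Of 29 catenins and junction partners tested, 0 passed, with 1 higher and 4 lower at an unadjusted p below 0.05 by edgeR's quasi-likelihood test, where 8.57% of all genes were higher and 8.99% lower. Ctnna1, the alpha-catenin that links cadherins to actin, held 71.8, 71.7 and 76.7 CPM in KO and 80.3, 82.0 and 90.7 CPM in WT, with an adjusted p of 0.135. The other genes of smallest p in that list were Pkp3 and Ptprf. Of 20 genes of the atypical cadherins, 0 passed, with 1 higher and 1 lower unadjusted. Celsr3, a seven-pass cadherin of axon guidance, held 223.2, 224.8 and 241.7 CPM in KO and 208.9, 180.1 and 168.4 CPM in WT, with an adjusted p of 0.0868, and Dsg2 and Clstn1 followed.

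Of 16 genes of cadherin O-mannosylation and shedding, which include the TMTC enzymes and gamma-secretase, 0 passed, with 0 higher and 2 lower unadjusted. Over all genes 8.57% were higher and 8.99% lower unadjusted, here and for the lists below. Ncstn, the nicastrin subunit of gamma-secretase, held 66.8, 66.9 and 65.5 CPM in KO and 72.3, 79.1 and 81.9 CPM in WT, with an adjusted p of 0.0888, and Aph1b followed. Of 20 protocadherin effectors, 0 passed, with 1 higher and 3 lower unadjusted. Phldb1 held 207.9, 196.6 and 201.8 CPM in KO and 178.7, 168.6 and 170.0 CPM in WT, with an adjusted p of 0.0616, and Nckap1 and Rac1 of the WAVE pathway followed. Of 24 regulators of the clustered promoters, 0 passed, with 0 higher and 2 lower unadjusted. Trim28, a repressor of chromatin, held 186.6, 182.8 and 181.7 CPM in KO and 204.8, 224.8 and 209.7 CPM in WT, with an adjusted p of 0.0862, and Smc3 and Lrif1 followed. The groups did not overlap in Ctnna1, Celsr3, Ncstn, Phldb1 and Trim28, which were picked for having the smallest p of their lists. Over all genes tested, the groups did not overlap in 23.7%.

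The count of members that passed depended on WT replicate 1. Without it, 1 member was higher (Cdh1) and 10 were lower (Cdh2, Cdh3, Cdh13, Pcdh1, Pcdh8, Pcdha9, Pcdha10, Pcdhga9, Pcdhga12 and Pcdhgb6), while 5.22% of all genes were higher and 5.24% lower, or 10.5% in either direction, against 1.66% with all 6 libraries. Markers of other cell types were taken from the main test with all 6 libraries. There 0.784% of all genes rose and 0.872% fell, or 8.57% and 8.99% unadjusted. Of 12 Purkinje cell markers 2 rose (7 higher and 0 lower unadjusted), as did 2 of 10 oligodendrocyte markers (7 higher and 0 lower unadjusted). In the astrocyte and Bergmann glia list 1 of 10 rose, Sept4 (adjusted p of 0.0463), with 1 higher and 1 lower unadjusted. Of the unipolar brush cell markers 2 of 7 fell, with 0 higher and 2 lower unadjusted. Among the cerebellar interneuron markers 1 of 10 fell, Slc6a5 (adjusted p of 0.0225), with 1 higher and 3 lower unadjusted. The list of granule cell precursor and proliferation markers held 10 genes, of which 0 passed, with 1 higher and 4 lower unadjusted. Of 8 oligodendrocyte precursor markers 0 passed, with 0 higher and 5 lower unadjusted, and of 12 granule cell markers 0 passed, with 1 higher and 0 lower unadjusted. Their part in the members' levels was not tested.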

How the data were processed

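The authors deposited raw gene counts, 1 table for each library. The submitters' processing notes name STAR 2.7.5a, the build mm10/GRCm38 and edgeR 3.12, and the annotation was Ensembl release 102 by the names of the tables. No result of the authors' own test was used. The libraries were TruSeq RNA libraries read as pairs of 150 bases, per the labels' protocols. The sources used here do not state the counting options. Counts without regard to strand were analysed, since the first column by strand held 49.9% to 50.0% of the counts. Reads of genes that overlap on opposite strands cannot be told apart. Unmapped reads made up 13.8% to 17.2% of reads in the KO libraries and 6.52% to 10.0% in the WT libraries, and reads ambiguous between genes 3.95% to 4.07% and 4.35% to 4.44%. These lines and reads outside genes (6.94% to 9.30%) stayed out of library sizes and tests.

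Symbols, biotypes and positions came from GENCODE M21 (GRCm38), which matched 99.4% of the 55487 identifiers. That annotation gives 2 genes the symbol Pcdha11, and 1 of them was named Pcdha10 by its position in RefSeq. A gene with fewer than 60 counts over the 6 libraries counted as not measured. KO was set against WT by edgeR's quasi-likelihood test (edgeR 4.0.16 under R 4.3.3), which is two-sided, with TMM scaling, the default filter on low counts, and a call at an adjusted p below 0.05 (Benjamini-Hochberg over 18237 genes). The fit had 6.36 prior degrees of freedom and a biological coefficient of variation of 8.52%. CPM are TMM-scaled. SEs and 95% intervals come from the fold change and F statistic. Totals of 17111611 to 29840046 counts set the precision, and without molecular identifiers reads can be PCR copies.

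The 16 alternatives were other scalings, filters, tests (DESeq2 1.42.0, edgeR's exact test, limma 3.58.1 voom), the summed strand columns and leaving out each library. The steps were tested on simulated data. The members, gene lists and tests were chosen with earlier results of these data known. Values are given for members at an adjusted or unadjusted p below 0.05, the 3 of each group with the highest mean CPM, and unclustered members whose groups did not overlap. From each list of related genes, the 3 with the smallest p are named, except 1 gene that is not reported here. Promoters were printed for members at an unadjusted p below 0.05 whose groups did not overlap, outside chromosome 18: RefSeq had an entry for 3 of 5 such genes.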

Additional observations from a re-analysis of the deposited data

Results flagged for a closer look

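The counts used here left out signal from the clustered locus, and 3 genes that were not tested as members stand out. Pcdhgb8, a gamma gene annotated as a polymorphic pseudogene and therefore no member, held 161 counts over the 6 libraries (48, 29 and 22 in KO, 16, 25 and 21 in WT), with a log2 fold change of 0.38 and an adjusted p of 0.574 by edgeR's quasi-likelihood test. Pcdhga10 held 0 counts in the column counted without strand, where the gene Gm26672 of the other strand covers its variable exon, but 1211 counts when the columns counted by strand were added. Pcdha11 held 2 counts without strand and 375 counts in the columns by strand. Measured members lost counts in the same way: Pcdhb12 held 230 counts without strand and 786 by strand, and Pcdhga11 held 861 and 1986. Since these libraries do not mark strand, part of such counts can belong to the gene on the other strand.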

How the results depend on the processing

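No member was called higher with all libraries and the settings of the main test, where 0.784% of all genes were. With no filter on low counts 1 was (Cdh1), against 2.40% of all genes. The 1 member called lower became 6 with no filter on low counts, 2 with DESeq2, 3 with edgeR's exact test and 2 with limma-voom and quality weights. Leaving out 1 library gave 0 to 1 members higher and 0 to 10 members lower. Over all genes, 143 higher and 159 lower became 803 and 820 with no filter on low counts, 294 and 263 with DESeq2, 495 and 405 with the exact test, and 397 and 396 with limma-voom and quality weights. Leaving out 1 library gave 28 to 959 genes higher (0.153% to 5.22%) and 53 to 962 lower (0.289% to 5.24%). Both highest counts came without WT replicate 1, and the cause was not tested. Other scalings, a minimum summed count of 60, limma-voom and the summed strand columns kept Cdh3 as the 1 member called. Of 592 alternative values of the 37 named members, 569 kept their direction or stayed short of the threshold, 4 lost a call (Cdh3), 19 gained one and 0 reversed a called value. Another 25 values, counted among the 569, changed sign with neither value past the threshold. The summed levels of the member groups moved by less than the spread between libraries under both of their alternatives. No paired analysis was possible because the titles number every animal differently, with no number common to KO and WT. Depth limits Cdh3, Cdh9, Pcdha1 and Pcdha8, which rest on 215, 184, 122 and 71 counts in all. The log2 fold change of Pcdha1 ran from 0.27 to 0.91 with 1 library left out.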
